A study of Mus musculus with 27 samples.

Results

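Tbc1d7 and 8 other genes that set the activity of mTORC1 were followed across RNA interference of the chromatin regulators MOF, MSL1 and NSL1 in mouse embryonic stem (ES) cells. The 9 genes were the TSC subunits Tbc1d7, Tsc1 and Tsc2, the stress-induced inhibitors Ddit4 and Sesn2, the GTPase Rheb, the mTORC1 components Mtor and Rptor, and the lysosomal amino acid sensor Slc38a9. They were found by gene symbol among the 13989 genes tested, on 10 probesets, since Slc38a9 has 2, and all 10 probesets passed the filter on low values. The group was chosen by function around genes selected on measured values of these arrays: the low Tbc1d7 signal after MOF RNAi in PGK12.1 and WD44 cells and on the NSL1 arrays, the high Ddit4 signal after MOF RNAi in PGK12.1 cells, and the high Sesn2 signal after MOF, NSL1 and combined RNAi. For these 4 comparisons the members' values are therefore a description, and no p-value is given for a member. The count of members called stands there only beside the share of all genes. Member p-values are given for MSL1 RNAi and for MOF RNAi in E14 cells, which are not among the values named. Earlier results of these data were known when the members were chosen, so these p-values are not a fully independent test.

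mTORC1 is a protein kinase complex on the lysosome that promotes protein, lipid and nucleotide synthesis and holds back autophagy. Growth factors act on it through the TSC complex, which turns off the GTPase Rheb, the direct activator of the kinase. Amino acids act through the Rag GTPases, which bring mTORC1 to the lysosomal surface and are themselves set by Ragulator, SLC38A9, the GATOR complexes and folliculin. In ES cells the pathway is known for supporting growth and proliferation, and its inhibition can place them in a paused state.

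The series holds 27 Affymetrix Mouse Gene arrays, 12 controls and 15 knockdowns, in 12 experiments that each have a control array. PGK12.1 is a female ES line whose blastocysts came from a cross of a 129 female with a (129 X PGK)F1 male, WD44 is a male line from BL6 blastocysts, and the line labelled E14 is a male BL6 by Cast hybrid. All cells were grown with leukemia inhibitory factor, depleted of feeder fibroblasts and transfected with 100 pmol of siRNA for 48 h, the controls with negative control siRNA. PGK12.1 cells had control and MOF siRNA in experiments 1, 2 and 3, and control siRNA in experiments A to E with MSL1 siRNA in A to C, NSL1 siRNA in C to E, and 100 pmol of Mof plus 50 pmol of Msl1 siRNA in D and E. WD44 and E14 cells each had control and MOF siRNA in experiments 1 and 2. In PGK12.1 experiments 1 and 2 the cells of both arms were transfected again with 400 pmol for a further 24 h. The labels do not say that experiments came from separately derived cultures, so p-values measure the spread between these arrays.

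Kat8, which encodes MOF, differed from control by -1.22 log2 units (SE 0.06) after MOF RNAi in PGK12.1 cells, -0.84 in WD44, -0.68 in E14 and -0.87 after combined RNAi, and it was lower in all 9 of those arrays than in the control of the experiment. Msl1 was at 51.1% of control after MSL1 RNAi and at 72.9% after combined RNAi. The label NSL1 could name Kansl1, a partner of MOF, or the kinetochore gene Nsl1: one Kansl1 probeset read -0.24 (SE 0.05), the other 0.50 (SE 0.13), and Nsl1 read 0.16 (SE 0.06). These arrays are therefore called the arrays labelled NSL1. Values are on the log2 scale. Array medians ran from 6.22 to 7.96 and differed in steps between sets of arrays, so differences were taken within an experiment; where groups are said to overlap or not over experiments of different sets, these steps enter. The mean of the 8 ES cell markers ran from 11.49 to 12.28 over the arrays, and the lowest single marker, Zfp42, lay at percentile 72.0 or above. Of the 8, Nanog (-0.14) and Tdgf1 (-0.17) were called lower after MOF RNAi in PGK12.1, Tdgf1 (-0.18) on the arrays labelled NSL1 and Sox2 (-0.21) in E14. Of the 8 feeder markers, 4 passed the filter, and 3 of these, the collagens Col1a1, Col1a2 and Col3a1, were called higher after MOF RNAi in WD44, by 0.38, 0.31 and 0.30. The mean over the 8 ran from 7.43 to 7.54 in WD44 controls and from 7.58 to 7.61 in knockdowns, and Thy1 was called lower on the arrays labelled NSL1 (-0.26). Over all arrays the 4 below the filter reached at most percentile 21.3 (Postn, with Lum lower), 35.4 (S100a4) and 60.4 (Dcn). Of 7 measured differentiation markers, 6 passed the filter: Krt18 was called higher in WD44 (0.45) and lower on the arrays labelled NSL1 (-0.24), Fgf5 lower in WD44 (-0.40) and Gata6 higher on the arrays labelled NSL1 (0.38), and Neurod1 was called higher after MOF RNAi in PGK12.1 (0.48), on the arrays labelled NSL1 (1.23) and after combined RNAi (0.77). The part of these cell type markers in the values below was not tested. These are bulk RNA values, in which fewer cells of a type and less RNA per cell cannot be told apart.

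Upstream sequence is shown first for the genes with the largest differences: Tbc1d7 and Slc38a9, which were lower, and Ddit4 and Sesn2, which were higher. Each run is the 250 bases before the annotated start, 5′ to 3′ on the gene's strand, from RefSeq (GRCm38.p6); capitals mark matches to the motifs named below, on either strand.
Tbc1d7, chr13:43171502-43171751, minus strand: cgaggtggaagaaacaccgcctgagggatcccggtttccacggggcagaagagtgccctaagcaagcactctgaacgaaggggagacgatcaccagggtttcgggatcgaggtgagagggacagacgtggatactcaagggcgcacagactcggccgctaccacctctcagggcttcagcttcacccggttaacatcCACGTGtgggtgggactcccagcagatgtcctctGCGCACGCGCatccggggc
Slc38a9, chr13:112660516-112660765, plus strand: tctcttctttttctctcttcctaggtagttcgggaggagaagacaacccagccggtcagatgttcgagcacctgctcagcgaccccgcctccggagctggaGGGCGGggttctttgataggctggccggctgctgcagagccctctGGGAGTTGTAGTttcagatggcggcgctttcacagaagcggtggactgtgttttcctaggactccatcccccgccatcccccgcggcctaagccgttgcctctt
Ddit4, chr10:59951771-59952020, minus strand: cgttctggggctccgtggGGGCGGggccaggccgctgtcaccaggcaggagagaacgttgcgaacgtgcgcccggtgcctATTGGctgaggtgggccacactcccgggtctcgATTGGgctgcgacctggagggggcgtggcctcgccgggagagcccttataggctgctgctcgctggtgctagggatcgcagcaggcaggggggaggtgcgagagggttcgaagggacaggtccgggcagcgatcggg
Sesn2, chr4:132510457-132510706, minus strand: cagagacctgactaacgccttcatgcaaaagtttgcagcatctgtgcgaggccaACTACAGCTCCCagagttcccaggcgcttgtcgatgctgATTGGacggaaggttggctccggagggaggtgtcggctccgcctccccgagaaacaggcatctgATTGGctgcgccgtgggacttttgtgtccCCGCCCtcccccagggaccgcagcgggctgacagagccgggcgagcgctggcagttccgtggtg
The motifs were picked after the sequences had been read, so their matches are a description. Tbc1d7 holds an E-box (CACGTG), 53 to 48 bases before the start, and an NRF1 motif (GCGCANGCGC), 19 to 10 bases before it. Among 32851 upstream sequences of the same length, 6.02% hold the first and 3.74% the second. Slc38a9, Sesn2 and Tsc2 hold the motif of THAP11 and ZNF143 (ACTACANNTCCC), which 1.67% of all sequences hold. The CCAAT box (CCAAT; 33.8% of all sequences) is present 2 times each in Ddit4 and Sesn2 and 4 times in Mtor, and in none of the other 6 windows, and the GC box (GGGCGG; 32.7%) is present in 5 of the 9 members. An element read by the stress factor ATF4 (TGATGNAA; 3.45%) matched none of the 9, and an ETS motif (CCGGAAGT; 2.88%) matched Mtor and Tsc2. The 250 bases before Tbc1d7 are 61.6% G or C, with 18 CpG sites at 0.76 of the number expected from base composition, where the median upstream sequence has 52.4% and 0.37. Rptor, at 37.6%, was the one member below that median in G and C.

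Tbc1d7 encodes the third subunit of the TSC complex, which helps to hold TSC1 and TSC2 together. Its signal was lower in all 3 PGK12.1 experiments with MOF RNAi, in all 3 with the arrays labelled NSL1 and in both WD44 experiments. In PGK12.1 experiments 1, 2 and 3 it read 7.48, 7.65 and 8.51 in controls and 6.68, 6.71 and 7.64 after MOF RNAi. The lowest control thus lay below the highest knockdown across experiments, while within each experiment the knockdown was lower. The fitted difference was -0.87 (SE 0.08), or 54.7% of control, and the single differences of -0.80 and -0.94 after repeated transfection and -0.87 after 1 transfection overlapped. In WD44 cells the controls read 10.21 and 10.19 and the knockdowns 9.37 and 9.41, so the groups did not overlap, with a difference of -0.81 (SE 0.09).

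The arrays labelled NSL1 gave the lowest Tbc1d7 values relative to control. The controls of experiments C, D and E read 8.16, 8.33 and 8.30, and the matching knockdowns read 6.76, 6.85 and 6.61. The groups did not overlap, and the fitted difference of -1.50 (SE 0.07) left 35.2% of the control signal. This was the lowest difference of all 13989 genes in that comparison; Tbc1d7 took place 9 from the lowest for MOF RNAi in PGK12.1 and place 7 in WD44. These places describe values that led to the choice of the gene.

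After MSL1 RNAi Tbc1d7 read 8.16, 8.38 and 8.17 in experiments A, B and C against 8.16, 8.20 and 8.16 in the controls. The difference was 0.04 (SE 0.07; limma adjusted p = 0.964). Combined RNAi of Mof and Msl1 gave 8.18 and 7.75 against controls of 8.33 and 8.30, a fitted difference of -0.31 (SE 0.09) with unequal parts of -0.15 in experiment D and -0.54 in E. In those same experiments the array labelled NSL1 differed from the array with combined RNAi by -1.33 in D and -1.14 in E, and in C it differed from the MSL1 array by -1.41. In E14 cells the controls read 8.90 and 9.18 and the MOF knockdowns 8.80 and 8.77. The groups did not overlap, but the difference of -0.26 (SE 0.09; adjusted p = 0.105) did not pass the test, and it came mostly from experiment 2, at -0.41 against -0.10. From the lowest, the 6 fitted differences of Tbc1d7 were -1.50 on the arrays labelled NSL1, -0.87 and -0.81 for MOF RNAi in PGK12.1 and WD44, -0.31 for combined RNAi, -0.26 for E14 and 0.04 for MSL1 RNAi. The single differences of the arrays labelled NSL1, from -1.69 to -1.40, lay apart from those of every other comparison. Those of PGK12.1 and WD44 overlapped, as did those of combined RNAi and E14.

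**Figure D1:**
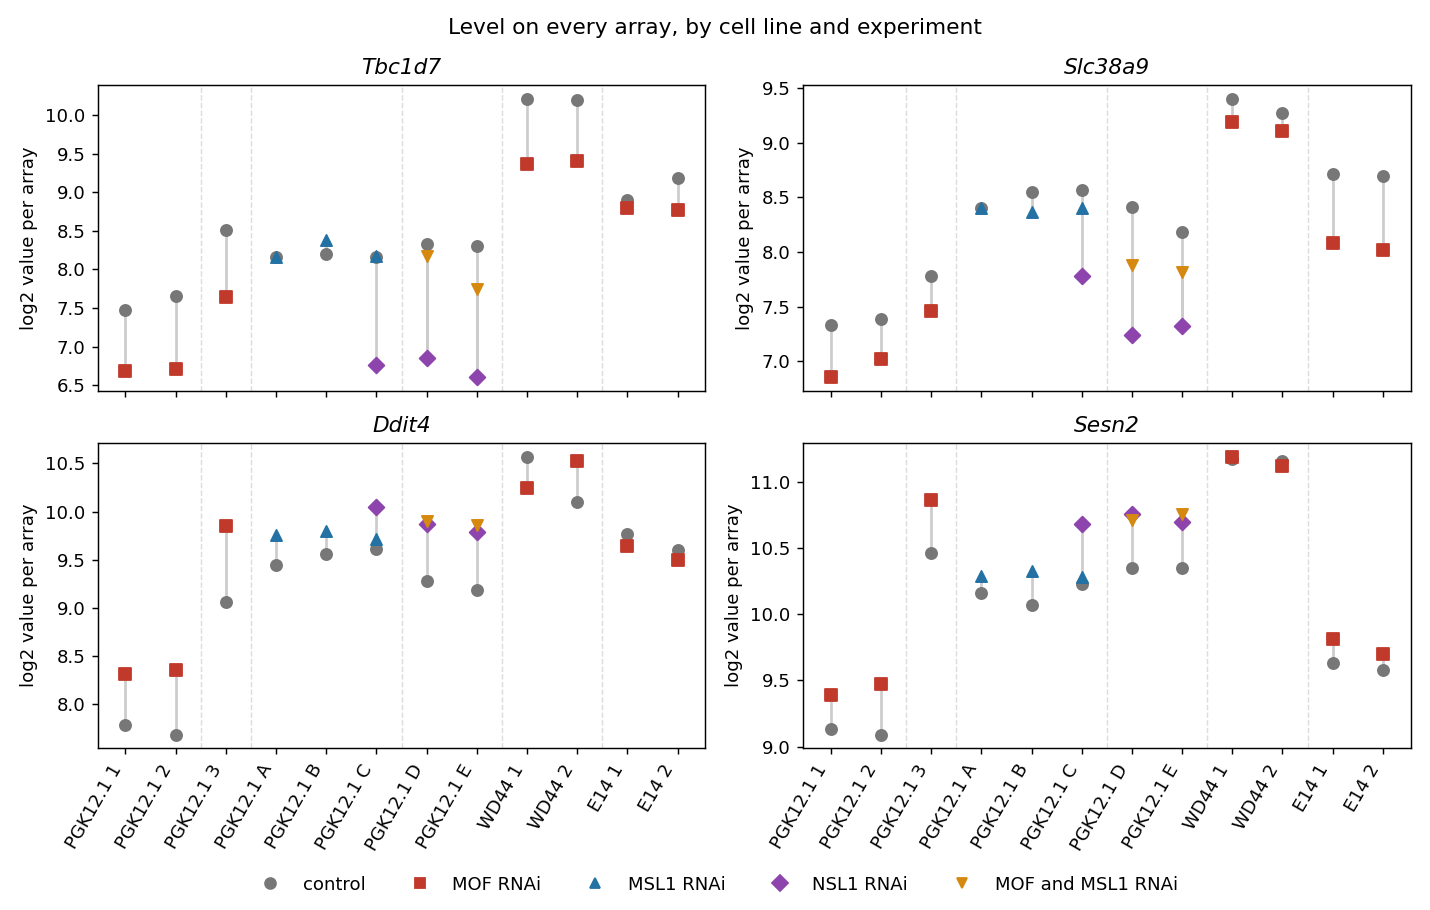
Log2 value on every array (vertical axis) of Tbc1d7, Slc38a9 (probeset 10407192), Ddit4 and Sesn2, by cell line and experiment (horizontal axis); grey circles are controls, coloured symbols knockdowns, grey bars join the arrays of an experiment and dashed lines separate sets of arrays. Tbc1d7 lies lowest on the 3 arrays labelled NSL1 relative to the control, at 6.76, 6.85 and 6.61, while the control levels step between sets.

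The other TSC subunits did not follow Tbc1d7. Tsc1, which stabilises TSC2, was lower after MOF RNAi in PGK12.1, from 7.83, 7.79 and 7.98 in controls to 7.65, 7.67 and 7.76, with all 3 knockdowns below every control and a fitted difference of -0.17 (SE 0.04). In the other 5 comparisons the fitted values of Tsc1 lay between -0.10 and 0.02, with adjusted p = 0.981 for MSL1 RNAi and 0.292 for E14. Tsc2, the subunit that acts on Rheb, differed by 0.07 (SE 0.05) after MOF RNAi in PGK12.1, by 0.03 on the arrays labelled NSL1 and by -0.12 (SE 0.06) in WD44. In E14 it read 10.47 and 10.50 in controls and 10.41 and 10.30 in knockdowns, a difference of -0.13 (SE 0.06; adjusted p = 0.202). Of the 3 subunits, Tsc1 and Tsc2 thus had no fitted difference farther from 0 than -0.17, where Tbc1d7 reached -1.50.

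Ddit4, also called REDD1, is induced by stress and low oxygen and inhibits mTORC1 through the TSC complex. It was higher after MOF RNAi in all 3 PGK12.1 experiments, from 7.78, 7.68 and 9.06 to 8.31, 8.35 and 9.85. The fitted difference was 0.66 (SE 0.10), or 158% of control, and took place 10 from the highest of 13989 genes. The arrays labelled NSL1 read 10.05, 9.87 and 9.79 in experiments C, D and E against 9.61, 9.28 and 9.18, without overlap, a difference of 0.56 (SE 0.09). Combined RNAi gave 9.90 and 9.86 against 9.28 and 9.18, a difference of 0.63 (SE 0.11), so D and E gave closely similar values for both treatments.

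MSL1 RNAi gave Ddit4 readings of 9.76, 9.80 and 9.71 against 9.44, 9.56 and 9.61; all 3 knockdowns lay above every control of those experiments, but the difference of 0.23 (SE 0.09; adjusted p = 0.422) did not pass. The male lines showed no common direction. WD44 controls read 10.57 and 10.10 and knockdowns 10.24 and 10.53, so the experiments gave -0.33 and 0.43 and the groups overlapped. In E14, controls of 9.77 and 9.60 stood against knockdowns of 9.64 and 9.50, a difference of -0.11 (SE 0.12; adjusted p = 0.623) with overlapping groups.

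Sesn2 encodes sestrin 2, a leucine sensor and stress-induced inhibitor that acts on the GATOR complexes. Its controls of 9.13, 9.09 and 10.46 in PGK12.1 experiments 1, 2 and 3 stood against 9.39, 9.47 and 10.86 after MOF RNAi. The fitted difference was 0.35 (SE 0.05), and each experiment gave between 0.26 and 0.40. In experiments C, D and E the arrays labelled NSL1 read 10.68, 10.76 and 10.70 against 10.23, 10.35 and 10.35, and after combined RNAi 10.71 and 10.76 against 10.35 and 10.35. Neither pair of groups overlapped, and the differences were 0.42 (SE 0.05) and 0.41 (SE 0.06). After MSL1 RNAi the values of 10.29, 10.33 and 10.28 lay above controls of 10.16, 10.07 and 10.23, a difference of 0.13 (SE 0.05; adjusted p = 0.39). E14 gave 9.81 and 9.70 against 9.63 and 9.58, a difference of 0.15 (SE 0.06; adjusted p = 0.165), and WD44 gave -0.01 (SE 0.06). Ddit4 and Sesn2 thus stood highest relative to control in the same 3 PGK12.1 comparisons, of which those of the arrays labelled NSL1 and of combined RNAi share the controls of experiments D and E.

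**Figure D2:**
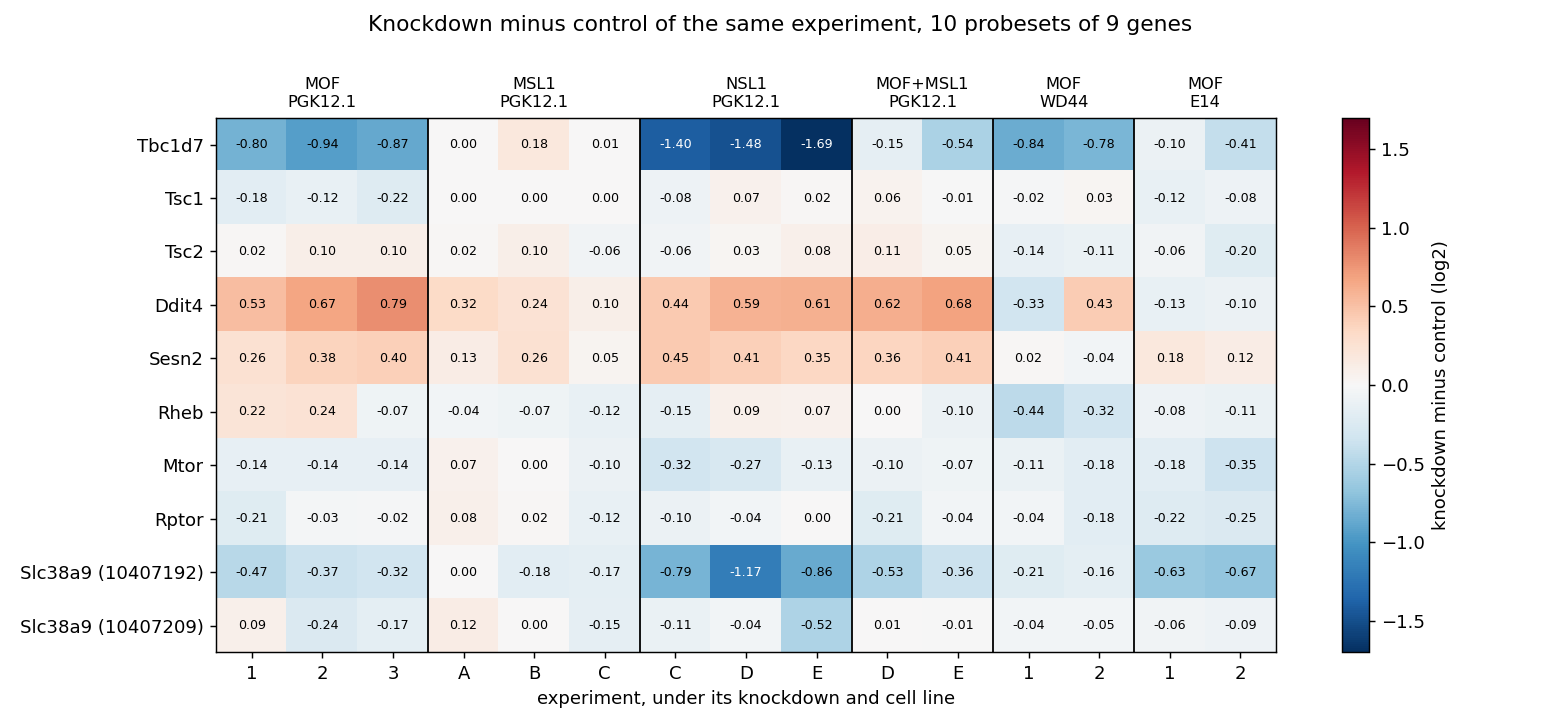
Knockdown minus control of the same experiment (log2 units, colour and printed value) for the 10 probesets of the 9 genes (rows) in the 15 knockdown arrays (columns), grouped by knockdown and cell line. Tbc1d7 runs from -1.69 to 0.18 and Ddit4 from -0.33 to 0.79, while Tsc1 and Tsc2 stay between -0.22 and 0.11.

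Rheb, the GTPase that TSC2 turns off, differed by 0.13 (SE 0.06) after MOF RNAi in PGK12.1, from 0.24 in experiment 2 to -0.07 in experiment 3. Without the control or the knockdown of experiment 3 that difference was 0.23. In WD44 Rheb was lower, with controls of 11.35 and 11.19 and knockdowns of 10.91 and 10.87 that did not overlap, a difference of -0.38 (SE 0.08). Other fitted values for Rheb lay between -0.09 and 0.00, with adjusted p = 0.903 for MSL1 RNAi and 0.501 for E14.

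Mtor encodes the kinase itself. It was lower on the arrays labelled NSL1, at 9.0, 8.88 and 9.03 against 9.32, 9.15 and 9.17, without overlap, a difference of -0.23 (SE 0.05). MOF RNAi in PGK12.1 gave 8.35, 8.38 and 8.50 against 8.49, 8.52 and 8.64, the same -0.14 in each experiment. Mtor fell in E14 by 0.27 (SE 0.06; adjusted p = 0.0187), from 9.68 and 9.69 to 9.50 and 9.34, lower in both experiments; without the block the adjusted p was 0.0931, and without experiment 1 or 2 it was 0.0899 or 0.293. Rptor, which encodes the subunit that recruits substrates, fell in E14 by 0.23 (SE 0.07; adjusted p = 0.0449), from 9.40 and 9.27 to 9.18 and 9.02, lower in both experiments. Its adjusted p rose above the threshold without the block (0.307), without the filter on low values (0.0802), after centring each array (0.0551), after quantile normalization (0.0668) and without experiment 1 or 2 (0.292 or 0.271). In the other 5 comparisons Rptor differed by -0.13 to 0.00, and MSL1 RNAi left both genes at 0.00 (adjusted p = 0.998 for Mtor and 0.996 for Rptor).

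Slc38a9 encodes the lysosomal transporter that reports arginine to the Rag GTPases, and its differences were below those of Tbc1d7 in E14, after combined RNAi and after MSL1 RNAi, and above them in the other 3 comparisons. Probeset 10407192 read 8.57, 8.41 and 8.18 in the controls of experiments C, D and E and 7.78, 7.24 and 7.32 on the arrays labelled NSL1. The groups did not overlap, and the difference was -0.92 (SE 0.06), or 52.8% of control, place 57 from the lowest. MOF RNAi in PGK12.1 gave 6.86, 7.02 and 7.46 against 7.33, 7.39 and 7.78, a difference of -0.39 (SE 0.07), and combined RNAi gave 7.88 and 7.82 against 8.41 and 8.18, a difference of -0.40 (SE 0.08).

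In E14 cells Slc38a9 fell from 8.71 and 8.69 to 8.08 and 8.02, without overlap and in both experiments. The difference was -0.65 (SE 0.08; adjusted p = 0.00059), or 63.7% of control and place 7 from the lowest of 13989 genes. The adjusted p was 0.0262 without the block; in a fit to the 4 E14 arrays alone, where no probeset was called, it was 0.231. In WD44 controls of 9.40 and 9.27 stood against 9.19 and 9.11, a difference of -0.18 (SE 0.08), and MSL1 RNAi gave -0.15 (SE 0.06; adjusted p = 0.462). The order of the lines was thus not the one seen for Tbc1d7, which had its smallest MOF difference in E14. Whether the lines differ in either gene was not tested, since the PGK12.1 and WD44 values took part in the choice.

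The second Slc38a9 probeset, 10407209, did not show these differences. It read 6.77, 6.05 and 6.38 in the controls of experiments C, D and E and 6.66, 6.01 and 5.87 on the arrays labelled NSL1, a difference of -0.19 (SE 0.09) carried by experiment E. In E14 it read 6.69 and 6.69 against 6.63 and 6.60, a difference of -0.08 (SE 0.11; adjusted p = 0.747). Its mean level passed the minimum of 6 but not the stricter minimum of 7, and no deposited value used here says which transcripts either probeset reads.

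Over the 9 members, 2 were called higher and 3 lower after MOF RNAi in PGK12.1 at a limma adjusted p under 0.05, beside 9.84% and 14.6% of all genes. For the arrays labelled NSL1 the counts were 2 higher and 3 lower, beside 18.8% and 22.4%, and after combined RNAi 2 higher and 1 lower, beside 3.51% and 3.42%. In WD44 0 were called higher and 2 lower, beside 4.45% and 8.28%. Nothing is read from these 4 counts, because the comparisons took part in the choice of members. E14 gave 0 higher and 3 lower (Slc38a9, Mtor and Rptor), beside 3.77% and 4.93% of all genes; only Slc38a9 of the 3 kept its call without the block. MSL1 RNAi gave 0 in either direction, beside 0.114% and 0.1%; at an unadjusted limma p under 0.05 it had 2 higher (Ddit4 and Sesn2) and 1 lower (Slc38a9). Those shares are at the adjusted threshold. The share of all genes at the unadjusted level was not taken, so nothing is read from the unadjusted counts of members, here, or of lists, below. Median differences of the members were -0.09 after MOF RNAi in PGK12.1, 0.02 after MSL1 RNAi, 0.00 on the arrays labelled NSL1, -0.09 after combined RNAi, -0.12 in WD44 and -0.13 in E14, where the median of all genes lay between -0.02 and 0.00.

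The rest of the pathway was read from 68 further measured genes in lists by function. After MOF RNAi in PGK12.1, 12 of the 68 were called higher and 9 lower (17.6% and 13.2%), and without the block 7 and 1. With the arrays labelled NSL1 16 were higher and 15 lower (23.5% and 22.1%), after combined RNAi 3 and 1 (4.41% and 1.47%), in WD44 0 and 9 (13.2% lower), and in E14 4 and 1 (5.88% and 1.47%). The shares of all genes, in the same order, were 9.84% and 14.6%, 18.8% and 22.4%, 3.51% and 3.42%, 4.45% and 8.28%, and 3.77% and 4.93%, so several of these counts lay near them. Without the block these became 14 and 15, 2 and 7, 0 and 1, and 1 and 0. MSL1 RNAi called 0 of 68 in either direction with the block and without it, with 2 higher and 6 lower at an unadjusted limma p under 0.05; in WD44 2 were higher at that level. The lists were chosen with earlier results of these arrays known, and genes were named from them by p or after their values were seen. The p-values of list genes below are therefore a description and not an independent test.

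Of the stress-induced inhibitors beside Ddit4 and Sesn2, all 3 measured genes rose on the arrays labelled NSL1, where 18.8% of all genes were called higher. Ddit4l, the paralog of Ddit4, rose by 1.00 (SE 0.08; adjusted p = 1.68e-07), Sesn1 by 0.36 (adjusted p = 0.000298) and Sesn3 by 0.24 (adjusted p = 0.00353). Ddit4l also rose after MOF RNAi in PGK12.1, by 0.48 (SE 0.08; adjusted p = 0.000575), and after combined RNAi, by 0.58 (SE 0.09; adjusted p = 0.00278), though the combined value had an adjusted p of 0.059 without the block. It was the 1 gene of the 3 called higher in each of those comparisons, beside 9.84% and 3.51% of all genes. Without the block 0 of the 3 were called higher after combined RNAi and 1 was called lower. In WD44, in E14 and after MSL1 RNAi 0 of the 3 were called. Rhebl1, the paralog of Rheb, fell by 0.52 (SE 0.07; adjusted p = 4.81e-05) on the arrays labelled NSL1.

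In the Rag and Ragulator list, which also holds folliculin and its partners, 4 of 12 genes rose and 2 fell after MOF RNAi in PGK12.1, and 5 rose and 4 fell on the arrays labelled NSL1, where 9.84% and 14.6%, and 18.8% and 22.4%, of all genes were called. The genes that rose were Rragc and Rragd, 2 of the 4 Rag GTPase genes, Flcn and Fnip1 in both comparisons, and Fnip2 on the arrays labelled NSL1. Without the block the counts were 3 higher and 0 lower after MOF RNAi in PGK12.1, and 4 and 4 on the arrays labelled NSL1. Rragd rose by 0.43 (SE 0.05; adjusted p = 6.73e-05) after MOF RNAi and by 0.60 (SE 0.05; adjusted p = 4.84e-07) on the arrays labelled NSL1. Flcn, which encodes folliculin, an activator of RagC and RagD, rose by 0.43 (SE 0.06; adjusted p = 0.000289) and 0.57 (SE 0.06; adjusted p = 3.76e-06), and by 0.52 (SE 0.07; adjusted p = 0.00157) after combined RNAi. Its partners were Fnip1, up by 0.32 (adjusted p = 0.000583) after MOF RNAi, and Fnip2, up by 0.40 (adjusted p = 0.000136) on the arrays labelled NSL1. The genes that fell were Ragulator scaffold subunits: on the arrays labelled NSL1 Lamtor5 fell by 0.64 (SE 0.07; adjusted p = 6.58e-06), and Lamtor2, Lamtor3 and Lamtor4 fell by 0.25, 0.15 and 0.23. After MOF RNAi Lamtor3 fell by 0.21 (adjusted p = 0.00341) and Lamtor5 by 0.34 (adjusted p = 0.00439), calls that were lost without the block at 0.0892 and 0.109.

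The GATOR complexes, KICSTOR and the cytosolic sensors held 13 measured genes, of which 0 were called higher in any of the 6 comparisons by limma. At an unadjusted limma p under 0.05, 1 was higher after MOF RNAi in PGK12.1 and 1 after combined RNAi. Of all genes, 0.114% (MSL1 RNAi) to 18.8% (arrays labelled NSL1) were called higher, so nothing particular to the list is read from the 0. Of the 13, 6 fell on the arrays labelled NSL1, with the block and without it, where 22.4% of all genes were called lower. Wdr59 and Wdr24, both of GATOR2, fell by 0.43 (SE 0.05; adjusted p = 1.68e-05) and 0.43 (SE 0.05; adjusted p = 1.92e-05), Kptn of KICSTOR by 0.62 (SE 0.08; adjusted p = 1.77e-05) and Nprl2 of GATOR1 by 0.44 (SE 0.06; adjusted p = 3.24e-05). Subunits of both the activating GATOR2 and the inhibiting GATOR1 and KICSTOR were thus among those that fell. After MOF RNAi in PGK12.1 Kptn fell by 0.33 (adjusted p = 0.00829) and Nprl2 by 0.18 (adjusted p = 0.0498), the latter lost without the block at 0.207. In WD44 Wdr24 fell by 0.38 (SE 0.07, adjusted p = 0.00516), Seh1l by 0.33 (adjusted p = 0.00771) and Mios by 0.36 (adjusted p = 0.0138), all of GATOR2. Without the block the adjusted p was 0.0303 for Wdr24, 0.0685 for Seh1l and 0.221 for Mios. Of the 13, 2 were called lower after MOF RNAi in PGK12.1 and 3 in WD44, beside 14.6% and 8.28% of all genes. Nothing particular to the list or to GATOR2 is read from these counts.

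**Figure D3:**
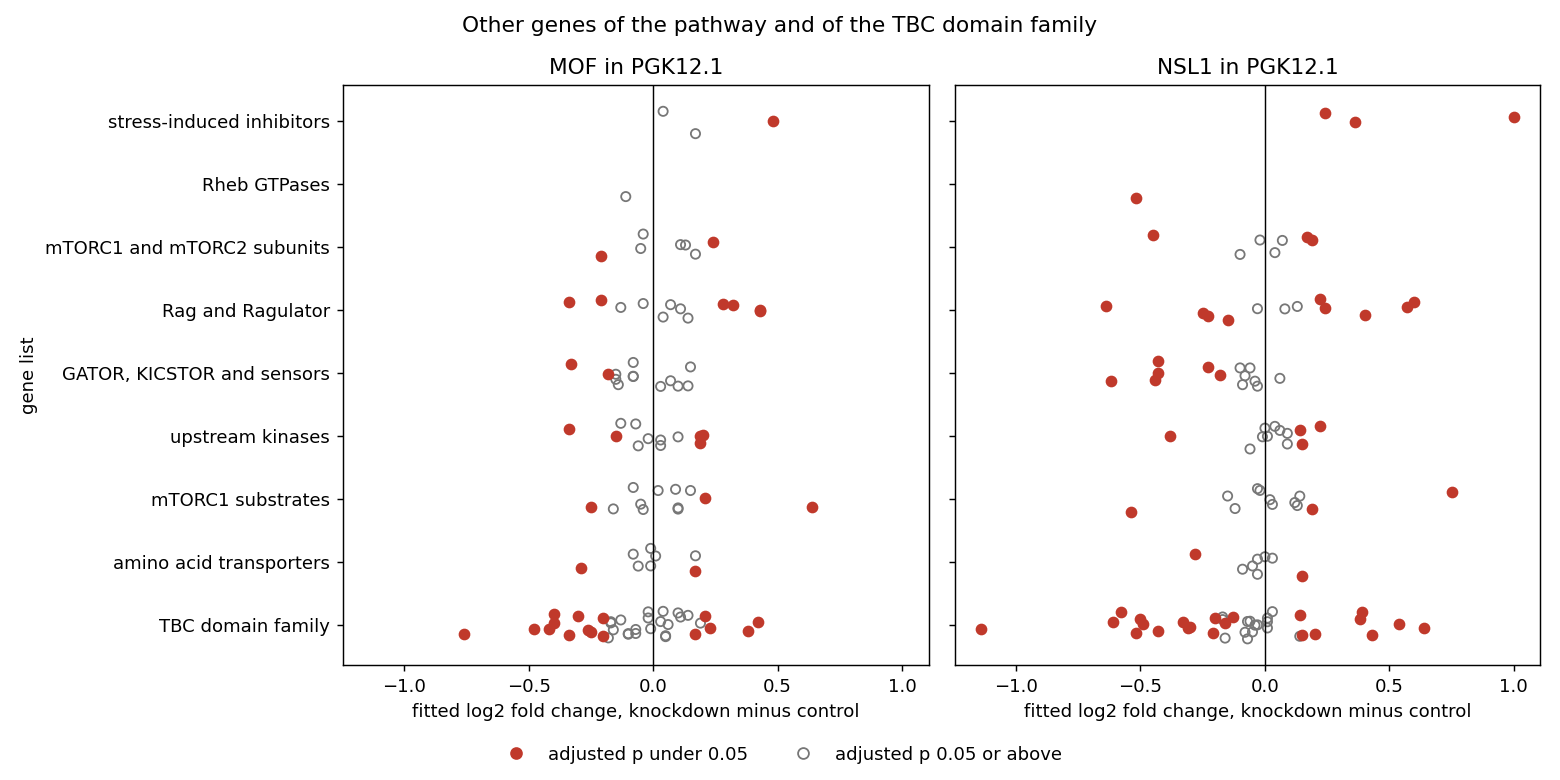
Fitted log2 fold change (horizontal axis) of the 68 other pathway genes and 37 other TBC domain genes (1 point a gene, spread vertically for view) by list, for MOF RNAi in PGK12.1 (left) and the arrays labelled NSL1 (right); filled points passed the adjusted p threshold of 0.05. On the right all 3 stress-induced inhibitors are filled and positive, up to 1.00, and 6 genes of GATOR, KICSTOR and sensors are filled and negative. Of all genes, 18.8% were called higher and 22.4% lower there.

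Among 7 other subunits of mTORC1 and mTORC2, 2 rose and 1 fell on the arrays labelled NSL1, where 18.8% of all genes were called higher and 22.4% lower. Deptor and Rictor rose there by 0.19 and 0.17 (adjusted p = 0.00881 and 0.0472), and Mapkap1, a subunit of mTORC2, fell by 0.45 (SE 0.06; adjusted p = 3.41e-05). After MOF RNAi in PGK12.1 Akt1s1 rose by 0.24 (adjusted p = 0.00879) and Mapkap1 fell by 0.21 (adjusted p = 0.0265), both lost without the block at 0.0709 and 0.0612. Of the 12 upstream kinase genes, Akt1 fell by 0.38 (SE 0.05; adjusted p = 3.2e-05) and 3 rose by 0.14 to 0.22 on the arrays labelled NSL1. These counts stand beside the same shares of all genes, and nothing particular to either list is read from them. Of the 12 genes listed for mTORC1 substrates and targets further downstream, Lpin1, a phosphatidate phosphatase, rose by 0.64 (SE 0.07; adjusted p = 3.33e-05) after MOF RNAi in PGK12.1 and by 0.75 (SE 0.07; adjusted p = 8.49e-07) on the arrays labelled NSL1. Rps6kb2, which encodes S6 kinase 2, fell by 0.54 (SE 0.06; adjusted p = 7.17e-06) on those arrays, and Pdcd4, a translation inhibitor, fell after combined RNAi by 0.43 (adjusted p = 0.0105) and in WD44 by 0.51 (adjusted p = 0.00516, and 0.183 without the block). Of the 8 amino acid transporter genes Slc38a2 rose and Slc36a4 fell on the arrays labelled NSL1, by 0.15 (adjusted p = 0.0131) and 0.28 (adjusted p = 0.00392). On those arrays 2 of the 12 substrate genes were called higher and 1 lower, and 1 transporter each way, beside 18.8% and 22.4% of all genes. The substrate counts were 2 and 1 after MOF RNAi in PGK12.1 (9.84% and 14.6% of all genes) and 1 and 1 after combined RNAi (3.51% and 3.42%). In WD44 they were 0 and 1 (4.45% and 8.28%). Nothing particular to the substrate or transporter list is read from these counts.

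Tbc1d7 belongs to the TBC domain family, whose members mostly act as GTPase-activating proteins of Rab proteins. Of 37 other measured family genes, 5 were called higher and 11 lower after MOF RNAi in PGK12.1, 8 and 14 on the arrays labelled NSL1, 1 and 5 after combined RNAi, 0 and 5 in WD44, 0 and 4 in E14 and 0 and 0 after MSL1 RNAi. The shares of all genes called are those given above for the pathway, among them 9.84% and 14.6% after MOF RNAi in PGK12.1 and 18.8% and 22.4% on the arrays labelled NSL1, and nothing particular to the family is read from the counts. Without the block the counts were 3 and 6, 5 and 12, 1 and 10, 0 and 0, 0 and 1, and 0 and 0; at an unadjusted limma p under 0.05 MSL1 RNAi had 1 higher and 4 lower, WD44 1 higher and E14 3 higher. Median differences of the family lay between -0.10 and -0.02. Tbc1d19 fell in all 5 comparisons other than MSL1 RNAi: by 0.76 (SE 0.06; adjusted p = 1.55e-06) after MOF RNAi in PGK12.1, by 0.53 after combined RNAi, 0.44 in WD44 and 0.49 in E14. It fell by 1.14 (SE 0.06; adjusted p = 4.67e-09) on the arrays labelled NSL1. Its WD44 call was lost without the block, at 0.0807. Tbc1d9, Tbc1d24 and Tbc1d8 rose on the arrays labelled NSL1, by 0.64, 0.54 and 0.43 (adjusted p = 4.05e-06, 7.91e-06 and 4.61e-06). The family thus held genes that fell and genes that rose on those arrays.

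Genes whose differences ran most like those of Tbc1d7 were ranked by Pearson correlation over the 15 knockdown arrays, which share 12 controls, as a description with no test. The 5 highest were Ift22 (r = 0.972), Mrps15 (0.969), Morn2 (0.963), Hpdl (0.963) and Taco1 (0.961). Ift22 encodes an intraflagellar transport GTPase, Mrps15 a mitochondrial ribosomal protein and Taco1 a translational activator of a mitochondrial cytochrome oxidase subunit. Against control, these genes differed on the arrays labelled NSL1 by -0.93, -0.53, -0.90, -0.81 and -0.59, less far from 0 than the -1.50 of Tbc1d7. Within the 9 members r with Tbc1d7 was 0.644 for Slc38a9 and 0.524 for Mtor, and from -0.437 to 0.053 for the rest. For Ddit4 the 5 highest were Odf2 (0.894), Ikzf5 (0.890), Cul7 (0.881), Utp3 (0.872) and Dnajc27 (0.868), and Sesn2 gave 0.718. This likeness is of pattern and not of direction or size: Odf2 and Cul7 differed by 0.18 and 0.27 after MOF RNAi in PGK12.1, Utp3 and Dnajc27 by 0.04 and 0.09, and Ikzf5 lay below 0 in all 6 comparisons, from -0.57 to -0.04. For Sesn2 they were Fam83d (0.926), Fam160a2 (0.906), Usp36 (0.893), Def6 (0.884) and Jmjd6 (0.874), with differences of 0.26, 0.08, 0.22, 0.48 and 0.24 after MOF RNAi in PGK12.1.

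**Figure D4:**
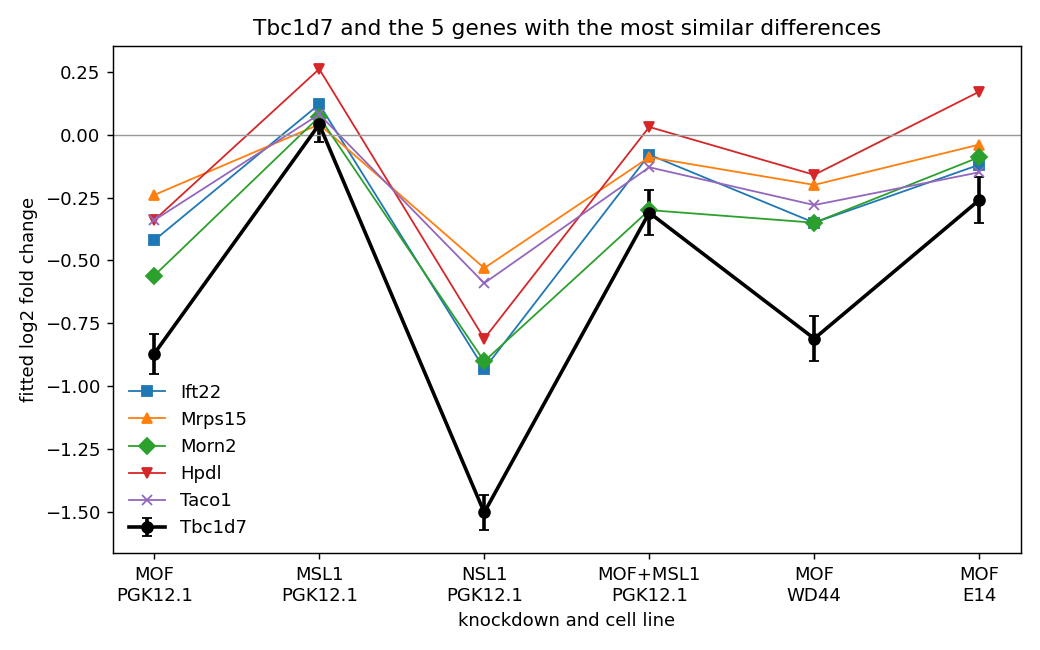
Fitted log2 fold change (vertical axis) in the 6 comparisons (horizontal axis) of Tbc1d7 (black, bars show 1 SE) and the 5 genes most correlated with it over the 15 differences. All 6 genes are lowest on the arrays labelled NSL1, where Tbc1d7 is at -1.50 and the others lie between -0.93 and -0.53.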

How the data were processed

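Per the labels, RNA of 27 ES cell samples was hybridised to Affymetrix Mouse Gene arrays. The deposited log2 values were made by the authors with Affymetrix Expression Console and RMA, per the submitters' processing notes; their versions and the genome build are not given in the sources used here. Of 35556 probesets, 21789 had 1 gene symbol in the platform annotation, 1621 several and 12146 none. The 16283 probesets with at least 1 symbol and a mean log2 value of at least 6 were fitted with limma 3.58.1 in R 4.3.3, with the experiment as a block, 6 knockdown terms and 9 residual degrees of freedom; p-values were Benjamini-Hochberg adjusted over them, and calls were made under 0.05. Gene counts use the probeset with the highest mean, 13989 genes. The block was taken because each experiment has its own control; an earlier reading of these data used pooled controls. Arrays of a number correlated (deviations from the group means) at -0.0042 (MSL1, experiment B) to 0.8672 (MOF, experiment 3), with 0.0113 in WD44 and 0.1293 in E14, each from 2 pairs. Not every array correlated best with its own number (MOF, experiment 1: 0.6672, and 0.678 with another; NSL1, experiment E: 0.5008 and 0.6278), so the pairing rests on the labels. Where experiments C to E share a control among 3 arrays, the fitted value is not always the mean of the single differences. The script was tested on simulated data. Members and lists were chosen with earlier results of these data known. Named were all members, the targeted genes, up to 4 called genes of a list by smallest p, and the 5 genes most correlated with Tbc1d7, Ddit4 and Sesn2; further list genes were named after their values were seen. Upstream sequence is from RefSeq, which held all 9 members. Alternatives were no block, other filters, centring, quantile normalization, array weights, own arrays only, the probeset with the largest spread, and leaving out each array.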

Additional observations from a re-analysis of the deposited data

Results flagged for a closer look

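Among the 5 PGK12.1 controls of experiments A to E, Tsc1 in the control of experiment D read 8.97, apart from the other 4, which lay between 9.06 and 9.07, though the array medians of experiments A to C and of D and E differ in steps; chance sets apart about 1 in 20 such groups. Tsc2 was higher in every PGK12.1 experiment with MOF RNAi (0.07) and lower in every WD44 (-0.12) and E14 (-0.13) experiment, and Ddit4 was higher in every PGK12.1 experiment (0.66) and lower in both E14 experiments (-0.11); these differences between lines were not tested.

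In 204 limma tests of whether the MOF response of another pathway gene differed between lines (68 genes, 3 pairs of lines), 12 passed an adjusted p of 0.05. The share of all genes that passed the same tests was not taken, so nothing particular to the pathway is read from this count. WD44 gave lower differences than PGK12.1 for Rragd (by -0.53; adjusted p = 0.00897), Lpin1 (-0.51; 0.0317), Mios (-0.47; 0.0369), Seh1l (-0.40; 0.0255), Deptor (-0.38; 0.0295) and Rragb (-0.38; 0.0302), and Rragb was also lower in WD44 than in E14 (-0.39; 0.0476). E14 gave lower differences than PGK12.1 for Ddit4l (-0.52; 0.0399), Lpin1 (-0.46; 0.0457) and Ulk1 (-0.27; 0.0487), and higher ones for Grb10 (0.35; 0.0399) and Lamtor3 (0.33; 0.029). PGK12.1 cells of experiments 1 and 2 were transfected again with 400 pmol for a further 24 h, and the male lines were not. Kat8 also stood lowest relative to control in the PGK12.1 fit (-1.22), against -0.84 (WD44) and -0.68 (E14). Tests against PGK12.1 therefore cannot separate the line from dose, time or depth of knockdown, and the part of these was not tested.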

How the results depend on the processing

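Counts of called probesets depended on the block and on the pooled spread. With the replicate block left out, MOF RNAi in PGK12.1 went from 3816 to 1250, MSL1 from 30 to 10, combined RNAi from 1048 to 1612, WD44 from 2013 to 99 and E14 from 1357 to 109. Fits to a comparison's own arrays gave 1516 for MOF RNAi in PGK12.1 and 0 for MSL1, WD44 and E14, where limma had 2052, 3458 and 3224 probesets at an unadjusted p under 0.05. Without the filter MSL1 had 15, combined RNAi 690 and E14 857; with the minimum of 7 MSL1 had 68. Array weights gave 267 for MSL1, 9722 against 6480 for the arrays labelled NSL1 and 2435 for combined RNAi, and quantile normalization gave 693 for combined RNAi. The cause of these shifts was not tested. Leaving out 1 array gave 2288 to 3361 for MOF RNAi in PGK12.1, 3 to 13 for MSL1, 4791 to 6279 for the arrays labelled NSL1, 130 to 519 for combined RNAi, 161 to 702 for WD44 and 55 to 325 for E14. Of 714 member values under these settings none reversed a called direction, and 628 kept both their sign and their side of the threshold. Of the rest, 31 lost their call, 10 gained a call and 45 uncalled values changed sign. With the probeset of largest spread, called genes of the Rag and Ragulator list (Slc38a9 included) went from 10 to 11 on the arrays labelled NSL1 and upstream kinases from 5 to 6 after MOF RNAi in PGK12.1; the other list counts were equal. With 2 experiments a line, WD44 and E14 calls rest on the spread of all 27 arrays.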
